A study of Mus musculus with 4 samples.

Results

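Genes that mark macrophages and monocytes, and genes that these cells use for uptake and defense, were examined in whole lung of mouse embryos at E18.5. A set of 35 genes was chosen by name, with earlier results of these data known. Of these, 34 had a probe set that the platform's annotation pairs with exactly 1 gene symbol, out of 19938 such genes, and each of the 34 had a lone probe set of this kind. *Spp1*, the secreted phosphoprotein osteopontin, was not analysed here. The WT group was 2 C57BL/6 *Hmga2*+/+ lungs and the KO group 2 *Hmga2*−/− lungs, both at embryonic day 18.5, with 1 array per sample. The sample titles call both WT samples WT1, as biological replicates 1 and 2, and the KO samples KO1 and KO2. The mutation is carried in the germ line, so that macrophages, epithelium and mesenchyme of a KO embryo all carry it, and no treatment is named. Litter, sex and the number of embryos behind a sample are not given in the sources used here, so that p values measure the spread between these arrays. RNA came from whole lung. Fewer macrophages and less of a transcript per macrophage can therefore not be told apart.

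Macrophages of the fetal lung descend from precursors of the yolk sac and from fetal liver monocytes. Around birth a part of them matures into alveolar macrophages, which clear surfactant and inhaled particles, and this step depends on the cytokine GM-CSF and the nuclear receptor PPAR gamma. The survival of most macrophages depends on the receptor of M-CSF, encoded by *Csf1r*, and their identity on the transcription factor PU.1, encoded by *Spi1*. Many of their activating receptors have no signaling part of their own and pair with the adaptors encoded by *Tyrobp* and *Fcer1g*, which carry an activation motif called ITAM.

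The deposited values are log2 summaries of probe sets made by the authors with RMA. A level below is such a log2 value, and a difference is KO minus WT on the log2 scale. Levels of different genes are compared only by rank among all genes. Over all probe sets the arrays labelled KO correlated at 0.997 and the WT arrays at 0.985, and WT replicate 1 stood apart, with 0.976 for both arrays labelled KO. The other WT array was closer to KO replicates 1 and 2 (0.994 and 0.992) than to WT replicate 1. KO replicate 2 was lower than KO replicate 1 for 78.3% of all genes, and WT replicate 2 higher than WT replicate 1 for 58.3%. The *Hmga2* probe set read 9.35 and 9.59 in WT and 9.65 and 9.39 in KO. Its difference was 0.05 (standard error 0.16) with a limma adjusted p of 0.892. It turned negative with cyclic loess and when replicate 1 of either group was left out, and since the part of the gene it covers is not known here, it does not settle the labels. Directions are therefore those of the arrays as labelled. The tissue label was borne out by *Sftpb*, a surfactant protein of the distal epithelium, at 13.36 and 13.38 in WT and 12.85 and 12.77 in KO. Of the 34 genes, 25 lay above the dimmest 40 percent of all genes. The 9 dimmer ones were *Aif1*, *Ms4a7*, *Marco*, *Cd163*, *Cd14*, *Clec4n*, *Clec4d*, *Clec4e* and *Gpnmb*, and whether a probe set exceeds background is not recorded in the values.

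Most macrophage and monocyte genes had lower levels in the arrays labelled KO, by amounts that ran from near 0 to 2.44-fold. The mean was lower in KO for 32 of 34 genes, where 58.8% of all genes had a lower mean, and the median difference was −0.36 beside −0.05 over all genes. Over all genes tested with limma, 4 of the 34 fell, where 0.702% of all genes fell, and 0 rose, where 0.0802% of all genes rose. At an unadjusted p under 0.05, 18 were lower (8.58% of all genes) and 0 higher (5.88%). Both KO arrays lay below both WT arrays for 25 of the 34, where this held for 31.8% of all genes, and 0 lay above, where 17.6% of all genes did. Because the set was chosen with earlier results of these data known, these shares describe it and do not test it. The 4 genes that fell were *Mpeg1*, *Cybb*, *Clec7a* and *Ctss*.

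*Mpeg1* encodes perforin-2, a pore-forming protein that macrophages use against engulfed bacteria. It read 9.71 and 9.60 in WT and 8.50 and 8.27 in KO. The lowest WT array thus lay 1.10 above the highest KO array, and the WT arrays differed by only 0.11 from each other. In KO it was lower by 2.41-fold (log2 difference −1.27, standard error 0.14, limma adjusted p = 0.0254). *Cybb* encodes the catalytic subunit of the phagocyte NADPH oxidase, which makes superoxide. It read 10.37 and 10.48 in WT and 9.32 and 8.96 in KO. Here too the groups were well apart, and the difference was −1.29 (standard error 0.16, adjusted p = 0.0303), or 2.44-fold. *Clec7a*, the receptor Dectin-1 for fungal beta-glucans, read 8.41 and 8.62 in WT and 7.55 and 7.32 in KO. The groups were 0.86 apart, with a difference of −1.08 (standard error 0.15) and an adjusted p of 0.0418. *Ctss* encodes cathepsin S, a lysosomal protease that also trims the chain bound to MHC class II molecules. Its levels were 9.51 and 9.57 in WT and 8.71 and 8.64 in KO, the closest replicates of these 4 genes. The difference was −0.86 (standard error 0.13), at an adjusted p of 0.0487. All of these calls ended when either KO array was left out, where limma found 1 gene (0.00502%, without KO replicate 1) and 0 genes (without KO replicate 2) past the threshold among all genes (1057 and 968, in either direction, at an unadjusted p under 0.05). Without the first and the second KO array the differences stood at −1.39 and −1.15 for *Mpeg1*, −1.47 and −1.11 for *Cybb*, −1.20 and −0.97 for *Clec7a* and −0.90 and −0.83 for *Ctss*. Leaving out WT replicate 1 raised the count of 4 to 17, where 5.68% of all genes fell and 2.53% rose. Leaving out WT replicate 2 raised it to 12, where 14.9% of all genes fell and 16.7% rose. In these 4 settings 1 group has a lone array, and the adjusted p of *Mpeg1* over all its alternatives ran from 6.38e-16 to 0.853 and that of *Ctss* from 6.77e-07 to 0.936.

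**Figure D1:**
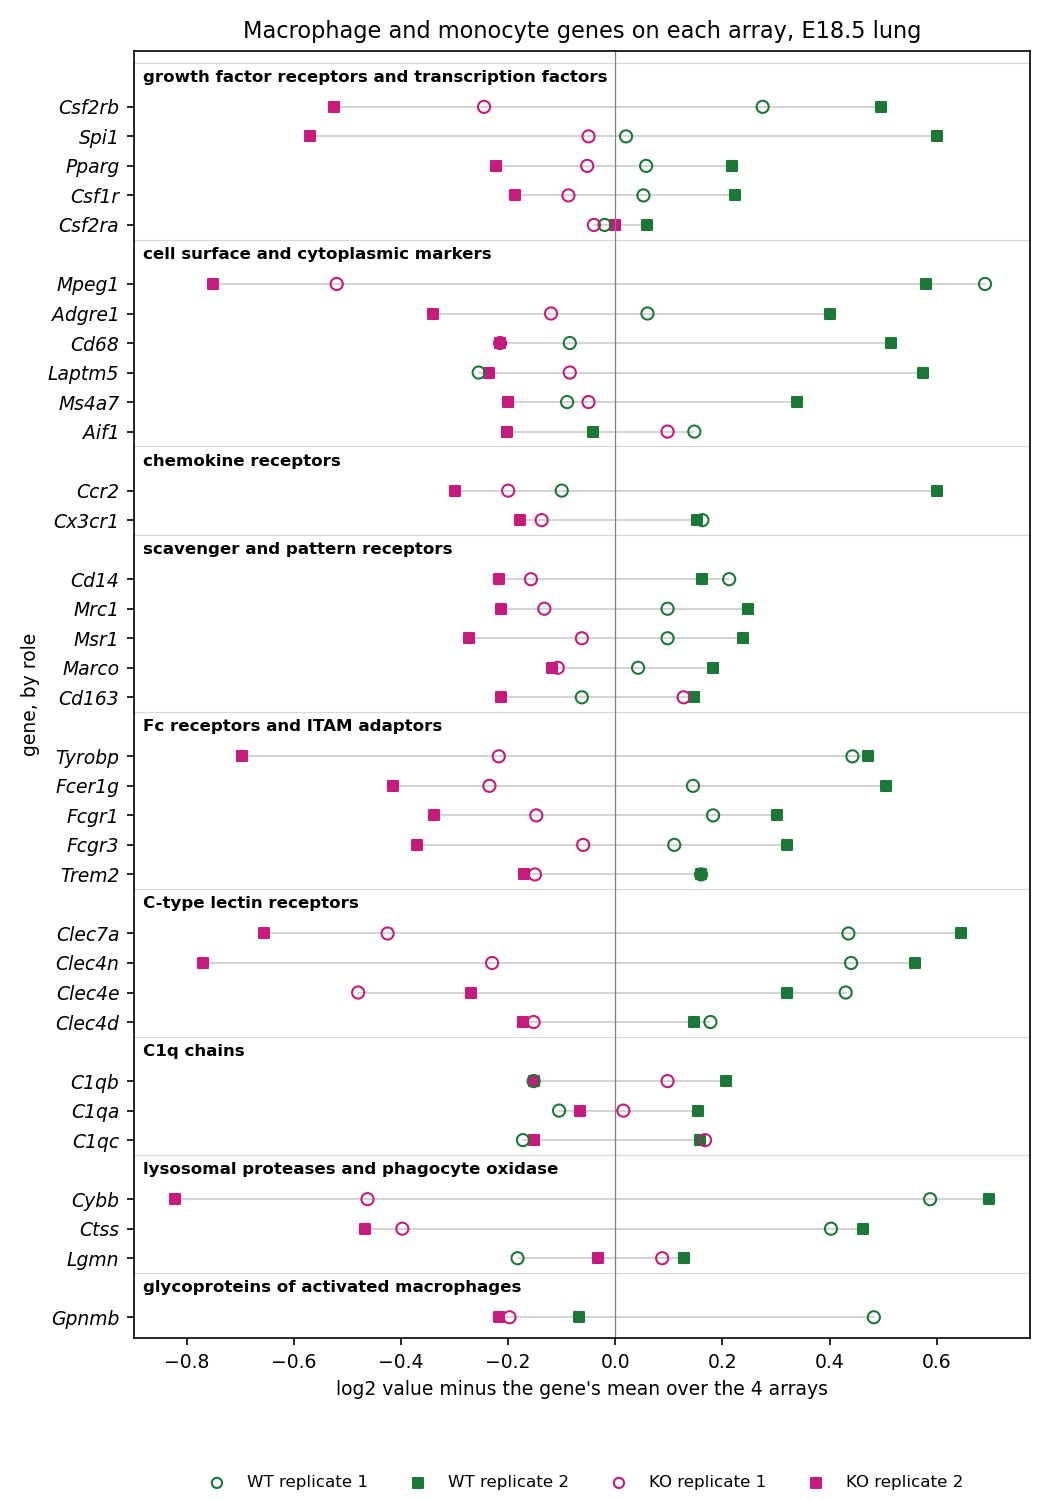
Each row is a gene and each point 1 array, as its log2 distance from the mean of that gene's 4 values (WT green, KO magenta; replicate 1 open circles, replicate 2 filled squares), grouped by role. *Mpeg1*, *Cybb*, *Clec7a* and *Ctss* have wide gaps between the groups, while the 3 C1q chains and *Lgmn* have WT and KO points intermixed.

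The stretches before the start sites of the genes that fell, and of the C1q chains *C1qb* and *C1qc*, which did not pass, are shown because macrophage promoters are known to be bound by PU.1. Capitals mark the letters GAGGAA, a form of the sites that PU.1 binds, read on either strand. The sequences come from RefSeq (build GRCm38.p6) and run 5′ to 3′ on the gene's strand over 250 bases up to the start site. They lie at chr19:12460520-12460769 on the plus strand for *Mpeg1*, chrX:9469325-9469574 on the minus strand for *Cybb*, chr6:129472780-129473029 on the minus strand for *Clec7a* (the first of its 2 listed start sites) and chr3:95526536-95526785 on the plus strand for *Ctss*. Those of the C1q chains lie on the minus strand at chr4:136886201-136886450 for *C1qb* and chr4:136892915-136893164 for *C1qc*.
*Mpeg1*: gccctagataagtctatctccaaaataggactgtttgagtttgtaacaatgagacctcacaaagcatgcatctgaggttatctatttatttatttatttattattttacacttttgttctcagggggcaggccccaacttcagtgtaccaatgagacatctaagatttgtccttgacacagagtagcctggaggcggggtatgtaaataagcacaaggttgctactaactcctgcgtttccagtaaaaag
*Cybb*: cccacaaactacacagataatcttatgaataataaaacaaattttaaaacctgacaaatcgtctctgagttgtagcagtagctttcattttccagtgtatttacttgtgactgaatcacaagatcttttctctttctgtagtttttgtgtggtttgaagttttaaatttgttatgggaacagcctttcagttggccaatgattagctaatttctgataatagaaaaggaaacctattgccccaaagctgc
*Clec7a*: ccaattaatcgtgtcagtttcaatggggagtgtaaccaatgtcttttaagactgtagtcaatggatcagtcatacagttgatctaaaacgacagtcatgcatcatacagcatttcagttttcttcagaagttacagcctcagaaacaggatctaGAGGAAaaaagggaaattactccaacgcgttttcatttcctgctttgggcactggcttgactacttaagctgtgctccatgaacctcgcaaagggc
*Ctss*: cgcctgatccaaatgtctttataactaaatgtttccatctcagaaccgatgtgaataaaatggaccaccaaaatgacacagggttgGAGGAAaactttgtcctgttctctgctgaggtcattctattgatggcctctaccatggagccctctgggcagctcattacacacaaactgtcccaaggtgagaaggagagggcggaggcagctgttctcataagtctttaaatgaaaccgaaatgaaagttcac
*C1qb*: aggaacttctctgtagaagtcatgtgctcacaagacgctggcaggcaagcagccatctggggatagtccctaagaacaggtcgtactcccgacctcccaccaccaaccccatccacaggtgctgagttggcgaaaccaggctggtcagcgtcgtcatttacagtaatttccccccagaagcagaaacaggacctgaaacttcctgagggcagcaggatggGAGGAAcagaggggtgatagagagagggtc
*C1qc*: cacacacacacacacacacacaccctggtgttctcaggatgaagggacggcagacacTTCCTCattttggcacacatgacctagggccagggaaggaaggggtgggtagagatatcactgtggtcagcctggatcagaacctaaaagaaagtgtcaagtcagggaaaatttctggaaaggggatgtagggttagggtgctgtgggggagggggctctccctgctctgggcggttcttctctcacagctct
*Clec7a* holds the letters at position −96 from the start site, *Ctss* at −164, *C1qb* at −30 and *C1qc*, on the opposite strand, at −193. *Mpeg1* and *Cybb* do not hold these letters in this window, and other forms of PU.1 sites were not searched for. The letters were thus found both before genes that fell and before genes that did not pass.

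RefSeq's table held promoters of 26 of the 35 genes, *Spp1* among them. *Adgre1*, *C1qa*, *Cd14*, *Clec4n*, *Csf1r*, *Csf2rb*, *Msr1*, *Spi1* and *Tyrobp* were not matched. GAGGAA, on either strand, was present before 17 of the 26 genes (65.4%), and before 25.9% of all 27025 genes of the table. Counted by windows, since some genes have several start sites, it was in 57.6% of 33 member windows and 23.3% of all 32851 windows. *Mrc1* held it 3 times and *Clec4e* and *Csf2ra* 2 times each. TTGCNNAA, letters of sites of C/EBP factors, was before 19.2% of member genes and 10.8% of all genes. TGTGGT, letters of RUNX sites, was before 26.9% and 15.9%. Both strands were read for each, and none of the 3 motifs contains another. Base composition of the windows was not matched, and its part in these shares was not tested.

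Receptors of the growth factors of macrophages lay lower in KO to different degrees. With the transcription factors below they make up 5 genes, of which limma called 0, where it called 0.702% of all genes lower. *Csf2rb* and *Spi1* were lower at an unadjusted p under 0.05, as were 8.58% of all genes. *Csf2rb*, the shared beta chain of the receptors for GM-CSF and related cytokines, read 8.75 and 8.97 in WT and 8.23 and 7.95 in KO. The groups were 0.51 apart and differed by −0.77 (standard error 0.16, adjusted p = 0.104). Without WT replicates 1 and 2 the difference was −0.875 and −0.656. *Csf2ra*, the alpha chain of the GM-CSF receptor, read 9.65 and 9.73 in WT and 9.63 and 9.67 in KO. Its groups overlapped, and the 95% confidence interval of its difference ran from −0.34 to 0.27. The receptor gene *Csf1r* read 9.48 and 9.65 in WT and 9.34 and 9.24 in KO. That is a small gap, with a difference of −0.27 and an interval from −0.60 to 0.06.

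The transcription factor genes *Spi1* and *Pparg* were lower on both KO arrays than on both WT arrays, as were 31.8% of all genes. *Spi1* read 8.86 and 9.44 in WT and 8.79 and 8.27 in KO, so that KO replicate 1 lay only 0.07 below WT replicate 1. The difference of −0.62 (standard error 0.25, adjusted p = 0.332) became −0.33 without WT replicate 2 and −0.91 without WT replicate 1. *Pparg* read 9.33 and 9.49 in WT and 9.22 and 9.05 in KO. Its difference was −0.28, with an interval from −0.61 to 0.06. PPAR gamma is also used by lipid-storing cells of the lung.

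Genes commonly used to mark macrophages all had a lower mean in KO, as did 58.8% of all genes. Both KO arrays lay below both WT arrays for 3 of the 6, as for 31.8% of all genes. Of the 6 markers, *Mpeg1* fell and the other 5 did not pass limma's test, where 0.702% of all genes fell. *Mpeg1* and *Adgre1* were lower at an unadjusted p under 0.05, as were 8.58% of all genes. *Adgre1*, the antigen F4/80, read 8.41 and 8.75 in WT and 8.23 and 8.01 in KO, a difference of −0.46 (standard error 0.17, adjusted p = 0.289). It was at −0.63 without WT replicate 1 and at −0.29 without WT replicate 2. *Cd68*, a lysosomal membrane glycoprotein, read 8.90 and 9.50 in WT and 8.77 on both KO arrays. The WT arrays thus differed from each other by 0.60, more than the difference of −0.43 between groups. That difference was −0.73 without WT replicate 1, where *Cd68* passed, and −0.13 without WT replicate 2. *Laptm5*, a lysosomal membrane protein of leukocytes, behaved alike, at 9.81 and 10.64 in WT and 9.98 and 9.83 in KO. WT replicate 1 was the lowest of its 4 arrays. The difference of *Laptm5*, −0.32, turned to 0.09 without WT replicate 2 and was −0.73 without WT replicate 1. *Ms4a7*, a membrane protein, and *Aif1*, the calcium-binding protein IBA1, were dim. Their differences were −0.25 and −0.10, with overlapping groups. That of *Ms4a7* passed at −0.47 without WT replicate 1 and was −0.03 without WT replicate 2, and that of *Aif1* turned to 0.02 with cyclic loess and to 0.05 without KO replicate 2.

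The chemokine receptor genes *Cx3cr1* and *Ccr2* differed in how far their replicates agreed. *Cx3cr1*, the receptor of fractalkine, which marks resident macrophages and patrolling monocytes, read 9.12 and 9.11 in WT and 8.82 and 8.78 in KO. The WT values were nearly equal, and the difference was −0.31 (standard error 0.12, adjusted p = 0.327). *Ccr2*, which draws inflammatory monocytes out of the bone marrow, read 7.62 and 8.32 in WT and 7.52 and 7.42 in KO. Here WT replicate 1 lay 0.10 above the KO arrays and WT replicate 2 stood alone. The groups differed by −0.50 (standard error 0.23, adjusted p = 0.388). This was −0.85 without WT replicate 1 but −0.15 without WT replicate 2.

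Scavenger and pattern receptors had small differences of one direction. The median of the 5 was −0.34, with 0 called by limma, where it called 0.702% of all genes lower. *Cd14* and *Mrc1* were lower at an unadjusted p under 0.05, as were 8.58% of all genes. *Cd14*, the co-receptor for lipopolysaccharide, read 7.62 and 7.57 in WT and 7.25 and 7.19 in KO. The difference was −0.38 (standard error 0.13, adjusted p = 0.251), and −0.351 and −0.404 without WT replicates 1 and 2. *Mrc1*, the mannose receptor CD206, read 9.26 and 9.41 in WT and 9.03 and 8.95 in KO, a difference of −0.34. *Msr1*, scavenger receptor A, had −0.34 as well, and *Marco*, a scavenger receptor of alveolar macrophages, −0.22. In these 4 genes both KO arrays lay below both WT arrays, as in 31.8% of all genes. *Cd163*, the receptor for hemoglobin bound to haptoglobin, read 6.14 and 6.35 in WT and 6.33 and 5.99 in KO. Its groups overlapped, and the difference of −0.08 turned to 0.04 with cyclic loess, to 0.03 without WT replicate 2 and to 0.09 without KO replicate 2.

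The Fc receptors and their adaptors lay lower on both KO arrays than on both WT arrays without exception, as did 31.8% of all genes. Their median was −0.49 over the 5 genes. Each had an unadjusted p under 0.05, beside 8.58% of all genes that were lower at it, and 0 passed limma's test over all genes. *Tyrobp*, the adaptor DAP12, read 10.16 and 10.19 in WT and 9.50 and 9.02 in KO. That is 1.88-fold lower in KO (log2 difference −0.91, standard error 0.18, adjusted p = 0.0952). The adaptor *Fcer1g*, the gamma chain shared by Fc receptors, read 10.35 and 10.71 in WT and 9.97 and 9.79 in KO, a difference of −0.65 (standard error 0.17, adjusted p = 0.160). *Fcgr1*, the high-affinity receptor for IgG, read 7.96 and 8.08 in WT and 7.63 and 7.44 in KO. *Fcgr3*, a low-affinity receptor for IgG, read 8.68 and 8.89 in WT and 8.51 and 8.20 in KO. Their differences were −0.49 and −0.43. *Trem2*, a lipid-sensing receptor that pairs with DAP12, read 8.23 on both WT arrays and 7.92 and 7.90 in KO, a difference of −0.32 (standard error 0.12, adjusted p = 0.321). Without WT replicates 1 and 2 the differences were −0.925 and −0.893 for *Tyrobp* and −0.824 and −0.469 for *Fcer1g*. They were −0.547 and −0.427 for *Fcgr1* and −0.541 and −0.325 for *Fcgr3*.

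The C-type lectin receptors had the largest median of the roles with several genes, −0.88 over 4 genes. These receptors sense sugars and glycolipids of fungi and mycobacteria. Besides *Clec7a*, which fell (its call ended without KO replicate 1, with a difference of −1.20, and without KO replicate 2, with −0.97), 3 genes that neighbor each other on chromosome 6 were measured. *Clec4n*, Dectin-2, read 7.13 and 7.25 in WT and 6.46 and 5.92 in KO. The KO arrays differed by 0.54 from each other, and KO was 2.01-fold lower (standard error 0.20 on the log2 scale, adjusted p = 0.0924). *Clec4e*, Mincle, read 5.45 and 5.34 in WT and 4.54 and 4.75 in KO, a difference of −0.75 (standard error 0.14, adjusted p = 0.0825). Without WT replicates 1 and 2 the differences were −1.063 and −0.945 for *Clec4n* and −0.692 and −0.804 for *Clec4e*. *Clec4e* was also the only one of the 4 lectins with KO replicate 2 above KO replicate 1. *Clec4d*, which forms a complex with Mincle, read 6.43 and 6.40 in WT and 6.10 and 6.08 in KO, a difference of −0.33 (standard error 0.12, adjusted p = 0.306). All 3 neighbors lie among the dimmest 40 percent of genes, where a difference on the log2 scale can understate the change in RNA.

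The chains of C1q differed little between the groups. C1q is the recognition part of the classical complement pathway and is made largely by tissue macrophages. Its genes *C1qa*, *C1qb* and *C1qc* lie next to each other on chromosome 4. *C1qa* read 8.23 and 8.49 in WT and 8.35 and 8.27 in KO. *C1qb* read 9.67 and 10.03 in WT and 9.92 and 9.67 in KO. *C1qc* read 8.45 and 8.78 in WT and 8.79 and 8.47 in KO. WT and KO overlapped for all 3 chains, and within each group 1 array was the higher one for each of them, WT replicate 2 and KO replicate 1. The 95% confidence intervals of the differences ran from −0.40 to 0.30 for *C1qa*, from −0.47 to 0.36 for *C1qb* and from −0.42 to 0.44 for *C1qc*. A change of the size seen for *Cybb* lies outside of them, but the median of the 34 genes, −0.36, lies inside each. When 1 array was left out, the difference ran from −0.18 to 0.08 for *C1qa*, from −0.23 to 0.12 for *C1qb* and from −0.16 to 0.18 for *C1qc*, which also turned from 0.01 to −0.02 with cyclic loess.

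Among lysosomal and oxidase genes the members split. *Ctss* and *Cybb* fell, calls that ended without KO replicate 1 (differences of −0.90 and −1.47) and without KO replicate 2 (−0.83 and −1.11). That of *Ctss* also ended with trend and robust in eBayes (adjusted p = 0.0623). *Lgmn*, a lysosomal protease that cleaves after asparagine and is also made by other cells, read 11.24 and 11.55 in WT and 11.51 and 11.39 in KO. Its groups overlapped, and the interval of its difference ran from −0.32 to 0.42. It turned from 0.05 to −0.10 without WT replicate 1 and to −0.01 without KO replicate 1. *Gpnmb*, a transmembrane glycoprotein of lipid-laden macrophages, read 6.87 and 6.32 in WT and 6.19 and 6.17 in KO. WT replicate 1 was the high array there, and the difference of −0.41 (standard error 0.20, adjusted p = 0.397) became −0.14 without it and −0.69 without WT replicate 2, where *Gpnmb* passed limma's test.

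**Figure D2:**
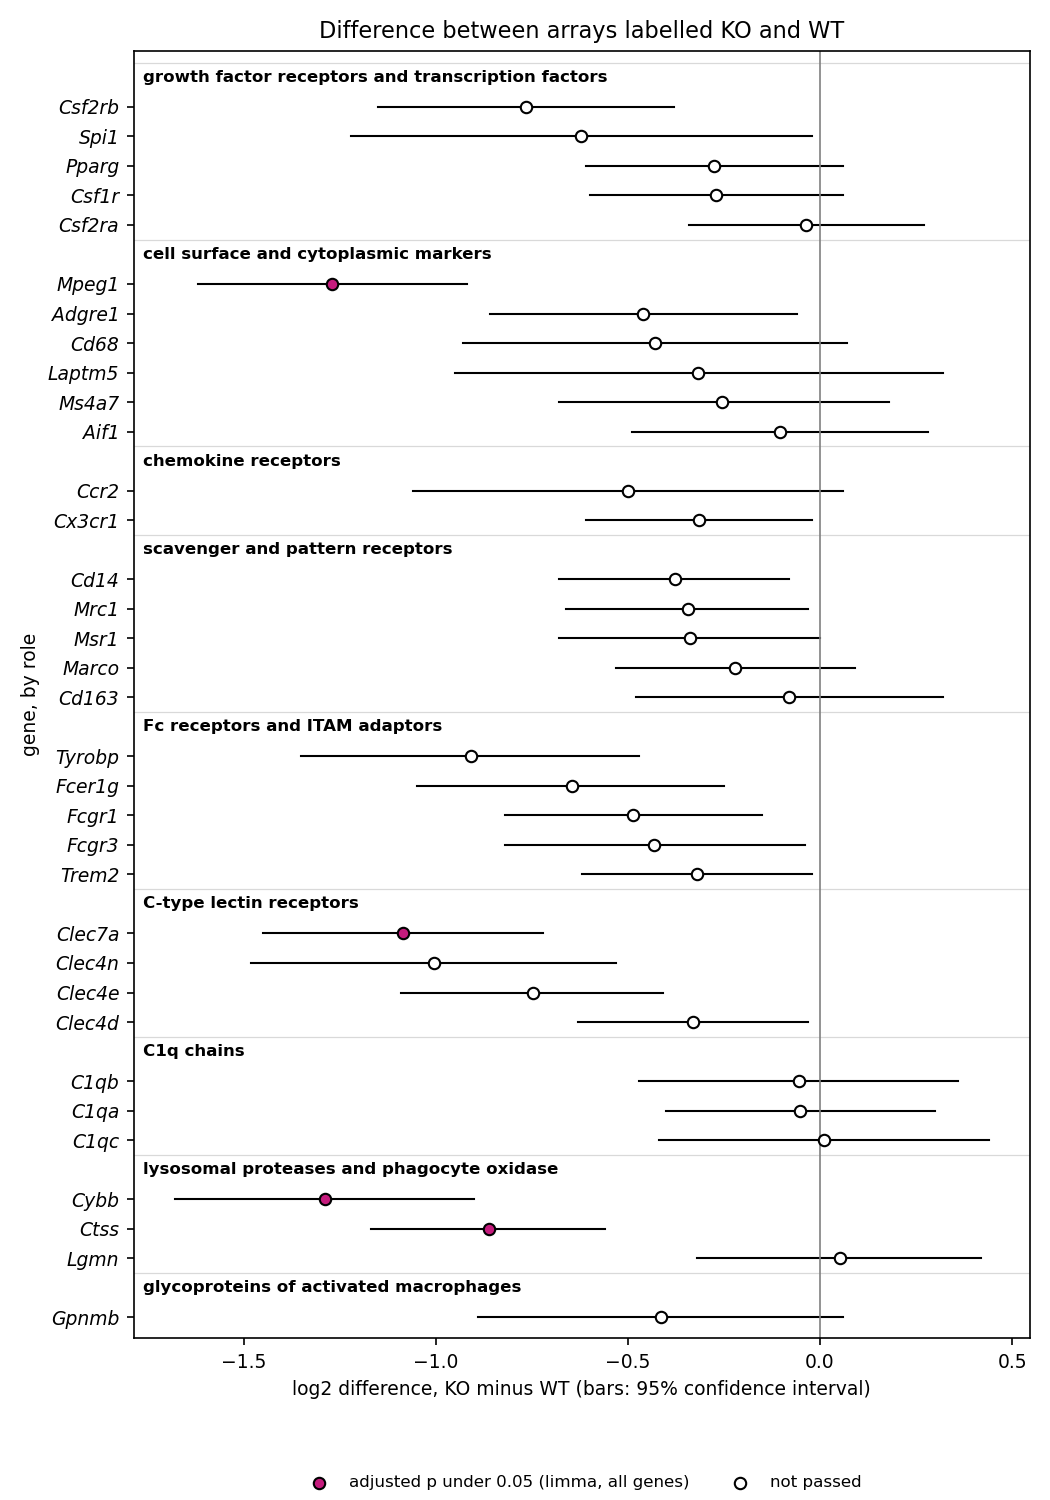
The log2 difference of each gene, KO minus WT, is plotted as a point with its 95% confidence interval from limma as a bar, grouped by role, and filled points passed an adjusted p of 0.05 over all genes. The 4 filled points lie between −1.29 and −0.86, and the C1q chains, *Lgmn* and *Csf2ra* lie near 0.

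Single arrays showed the same order with differing distance. The median over the 34 genes was −0.18 for KO replicate 1 minus WT replicate 1, −0.38 against WT replicate 2, and −0.35 and −0.53 for KO replicate 2 against WT replicates 1 and 2. All 34 genes were lower on KO replicate 2 than on WT replicate 2, as were 14136 of the 19938 genes. KO replicate 1 was lower than WT replicate 1 for 27 of 34, and 9634 of all genes were. Within groups, WT replicate 2 was above WT replicate 1 for 27 of the 34 genes (79.4%, beside 58.3% of all genes), by a median of 0.15. KO replicate 2 was below KO replicate 1 for 32 (94.1%, beside 78.3% of all genes), by a median of 0.17 in size. Leaving out 1 array moved the median difference of the 34 genes to between −0.45 (WT replicate 1 out) and −0.30 (WT replicate 2 out).

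**Figure D3:**
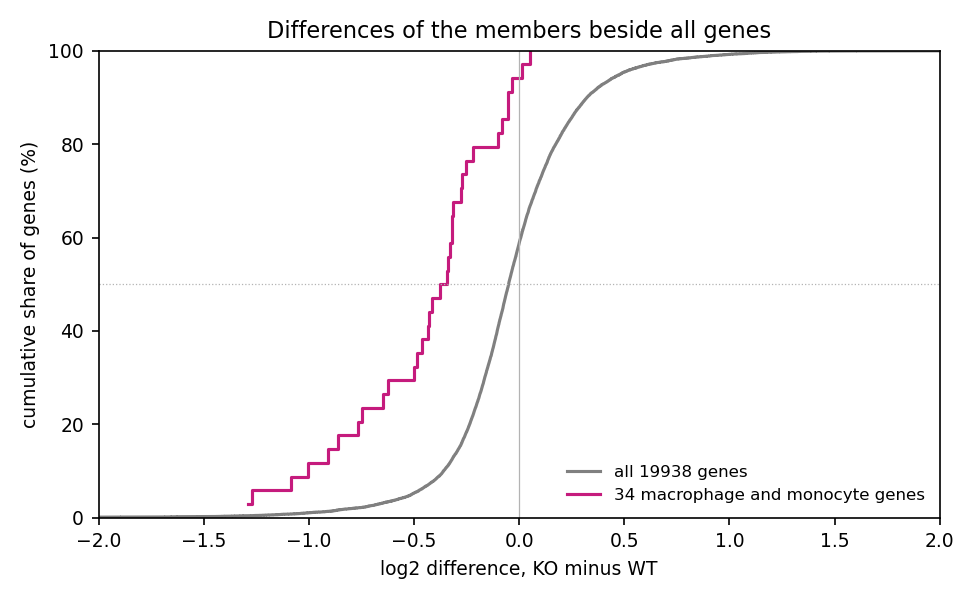
The cumulative share of genes is plotted against the log2 difference, KO minus WT, for all 19938 genes (grey) and the 34 macrophage and monocyte genes (magenta), cropped at 2 in either direction. The median is −0.36 for the 34 genes and −0.05 for all genes, and 2 of the 34 lie above 0.

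Other genes of macrophage biology were written down as 8 lists without any of the 34, with earlier results of these data known. Most were lower in KO as well, while the list of growth factors and chemoattractants was mixed. Of 126 genes listed, 114 were measured, with a median difference of −0.31 beside −0.05 over all genes. The mean was lower in KO for 97, and for 58.8% of all genes. Over all genes tested with limma 9 of the 114 fell, beside 0.702% of all genes, and 0 rose, beside 0.0802%. At an unadjusted p under 0.05, 48 were lower and 2 higher, beside 8.58% and 5.88% of all genes. All 9 calls ended when either KO array was left out. Alveolar macrophage genes had the lowest median, −0.78 over 13 genes, and 3 of them fell. *Olr1*, a receptor for oxidized lipoprotein, fell by 1.36 (adjusted p = 0.0149), with the groups 1.30 apart, and was at −1.41 and −1.31 without KO replicates 1 and 2. This gene lies among the dimmest 40 percent of genes. *Cd36*, a fatty acid transporter that capillary endothelium also carries, had −1.04, and *Plet1*, a surface protein also of epithelium, −0.98 (−1.08 and −1.09 without KO replicate 1, −0.998 and −0.88 without KO replicate 2). Monocyte genes had a median of −0.61 over 10 genes. *Lyz2*, a lysozyme made by macrophages and alveolar type II cells, fell by 1.76 (adjusted p = 0.00803), and *Ace*, the angiotensin-converting enzyme, which endothelium carries too, was at −0.999 and passed as well (adjusted p = 0.0337). Leaving out KO replicate 1 gave −1.80 and −1.02 for this pair, and leaving out KO replicate 2 gave −1.72 and −0.98. *Vcan*, a proteoglycan of monocytes and mesenchyme, was higher at 0.79 (adjusted p = 0.0937).

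Of 12 growth factors and chemoattractants, ligands that feed or recruit these cells, 7 had a lower and 5 a higher mean in KO, with differences from −1.01 to 0.62 and a median of −0.17. *Il34* and *Ccl3* fell, and 0 rose. At an unadjusted p under 0.05, 3 were lower and 1 higher, beside 8.58% and 5.88% of all genes. Both KO arrays lay below both WT arrays for 7 and above for 3, beside 31.8% and 17.6% of all genes. The log2 of the summed level of the 12 genes was 11.99 and 12.48 in WT and 12.58 and 12.46 in KO. *Il34* is the second ligand of the receptor encoded by *Csf1r*. It read 8.62 and 8.53 in WT and 7.58 and 7.55 in KO, or 2.01-fold lower (log2 difference −1.01, standard error 0.13, limma adjusted p = 0.0303). *Ccl3*, a chemokine that macrophages make themselves, had −0.98 (adjusted p = 0.0443), and *Csf2*, which encodes GM-CSF, had −0.87 (6.98 and 7.26 in WT, 6.34 and 6.16 in KO, adjusted p = 0.0745). Without KO replicates 1 and 2, *Il34* had −1.03 and −0.995 and *Ccl3* −1.09 and −0.87. *Ccl3* and *Csf2* lie among the dimmest 40 percent of genes.

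Signaling parts behind Fc receptors and lectins were lower in mean for all 21 measured genes (58.8% of all genes), with a median of −0.38. Of these, 0 passed limma's test and 13 were lower at an unadjusted p under 0.05, as were 8.58% of all genes. The same share stands beside the counts of the other lists below. *Clec4a3*, a lectin receptor, had −1.07 (adjusted p = 0.0693), *Pik3ap1*, a kinase adaptor, −0.82 (adjusted p = 0.0616) and *Pirb*, an inhibitory receptor, −0.78 (adjusted p = 0.0758). *Pirb* lies among the dimmest 40 percent of genes. Of 4 further subunits of the phagocyte oxidase, *Ncf1* fell, with a difference of −0.99 (9.78 and 9.90 in WT, 8.90 and 8.80 in KO, adjusted p = 0.0352), which was −1.04 without KO replicate 1 and −0.94 without KO replicate 2. *Cyba*, the partner chain of the protein encoded by *Cybb*, read 11.22 and 11.74 in WT and 11.34 and 11.01 in KO. Its difference of −0.31 did not pass (adjusted p = 0.519), but did so at −0.56 without WT replicate 1, and was −0.05 without WT replicate 2. Lysosomal hydrolases and membrane proteins, which all cells use, had a median of −0.15 over 17 genes, with 0 called by limma and 5 lower at an unadjusted p under 0.05. Myeloid transcription factors had −0.21 over 16 genes, with 0 called and 4 lower at that p. Among them were *Tfec*, with the lowest p of the list, at −0.84 (limma adjusted p = 0.132), and *Irf8*, which directs monocyte development, at −0.58 (adjusted p = 0.148). Tissue-resident macrophage genes had −0.28 over 21 genes. *Cbr2*, a carbonyl reductase abundant in lung epithelium, fell by 0.99 (adjusted p = 0.0399), −1.07 and −0.91 without KO replicates 1 and 2, and 8 genes of that list were lower at an unadjusted p under 0.05.

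Markers of other cells in whole lung moved too, and their part in the results above was not tested. These lists, too, were chosen with earlier results of these data known. Over all genes the median was −0.05, and 58.8% had a lower mean in KO. Among all genes 8.58% were lower and 5.88% higher at an unadjusted p under 0.05, and limma called 0.702% lower and 0.0802% higher. Pan-leukocyte genes had a median of −0.33 over 13 genes, with 0 called by limma and 5 lower at an unadjusted p under 0.05, and *Itgb2*, the beta chain of the leukocyte integrins, had −0.93 (adjusted p = 0.0577). The log2 of their summed level was 12.95 and 13.25 in WT and 12.83 and 12.70 in KO, and that of the 34 macrophage and monocyte genes 14.13 and 14.37 in WT and 13.92 and 13.75 in KO. Neutrophil markers had −0.27 over 14 genes, of which 14 had a lower mean, 5 had an unadjusted p under 0.05 and 0 were called. Among them *S100a8* had −0.87 (adjusted p = 0.0606). The medians were −0.11 for 9 T cell, −0.25 for 9 B cell, −0.21 for 9 NK cell, −0.13 for 9 dendritic cell and −0.08 for 10 mast cell markers, with 0 called by limma in each and 0, 2, 1, 0 and 2 lower at an unadjusted p under 0.05. A further mast cell marker was higher at that p. Platelet markers had −0.39 over 4 genes (2 at that p) and erythroid markers −0.11 over 4 (1 at that p), with 0 called. Of lung structure, epithelial markers had −0.02 and endothelial markers −0.26 over 8 genes each, with 0 called and 1 and 3 lower at that p, and 1 epithelial marker was higher at it. Mesenchymal markers had 0.19 over 8, with 1 lower at that p, and among them *Lum* and *Dcn*, proteoglycans of the matrix, rose by 2.05 and 1.13. Leaving out KO replicate 1 gave 1.92 and 1.03, and leaving out KO replicate 2 gave 2.18 and 1.24, and neither then passed.

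**Figure D4:**
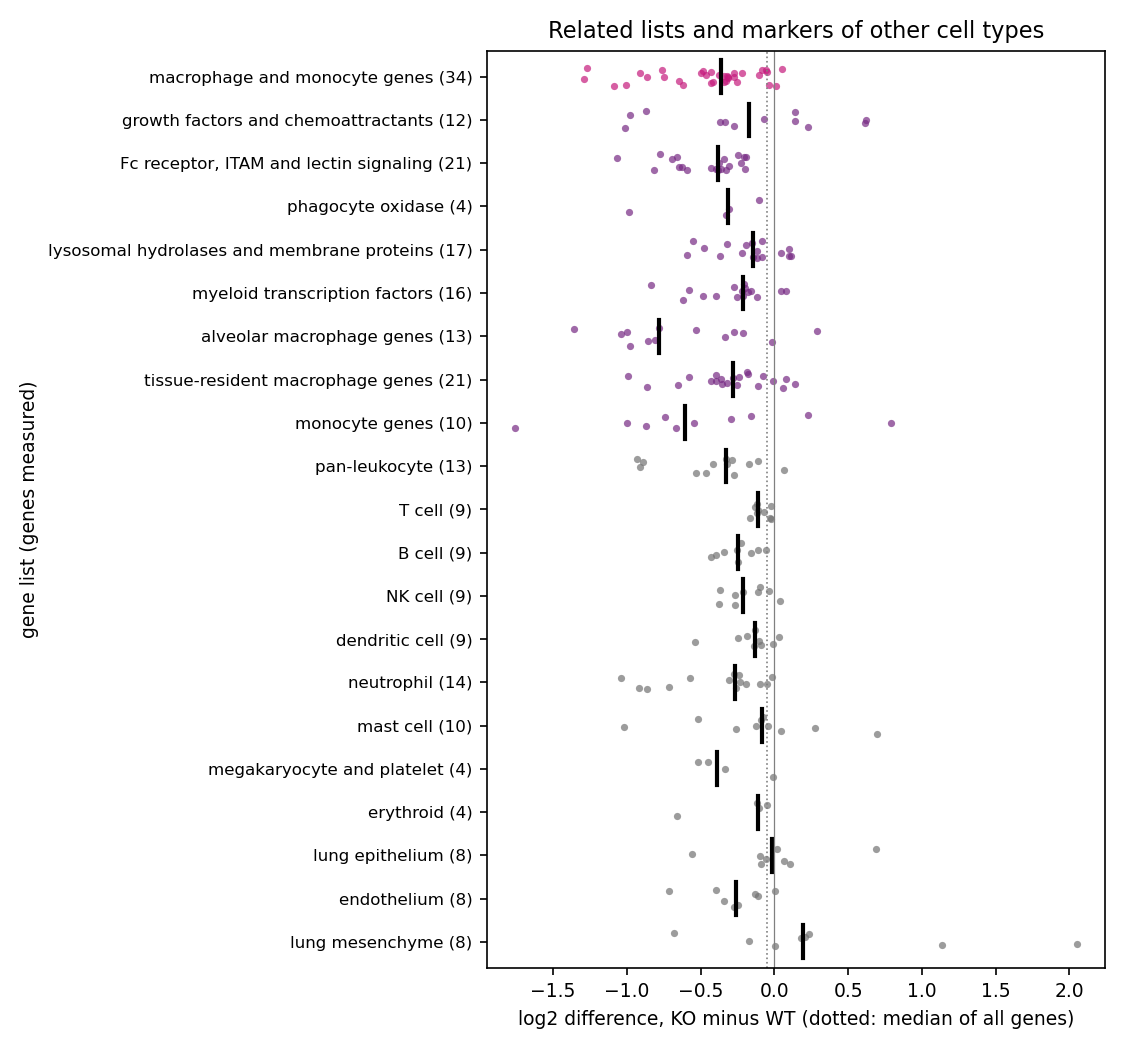
Each point is the log2 difference of a gene, KO minus WT, for the 34 macrophage and monocyte genes (magenta), 8 related lists (purple) and 12 marker lists of other cells (grey), with the list's median as a black bar, the count of genes measured in brackets and vertical jitter for legibility. Alveolar macrophage genes have the lowest median (−0.78), and lung mesenchyme the highest (0.19).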

How the data were processed

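Gene expression in E18.5 lung was measured on Affymetrix arrays, 2 WT and 2 KO. For 30177 probe sets the authors deposited log2 values, computed by RMA with the software Expression Console per the labels (version not given in the sources used here). RMA corrects background, quantile-normalizes arrays and summarises probes by median polish, which brings the arrays to similar distributions and hides a change shared by most genes. An offset remained, with medians over all probe sets of 7.99 and 8.02 in WT and 8.02 and 7.91 in KO. Both KO arrays lay below both WT arrays for 31.8% of all genes, 26.2% after median centring and 25.2% with cyclic loess. For the 34 members this held for 25, 25 and 26. The platform's annotation gave 1 symbol for 21789 probe sets, several for 1621 and none for 6767, and the brightest of a gene stood for it.

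All 19938 genes were fitted in R 4.3.3 by limma 3.58.1 (linear model with empirical Bayes, 2 residual and 4.42 prior degrees of freedom), as KO minus WT, with Benjamini-Hochberg adjustment over all genes and a threshold of 0.05. With 2 arrays against 2, an exact two-sided permutation test cannot go below 0.333. The number of arrays limits the precision. The code was tested on simulated data. Alternatives were a replicate block, median centring, cyclic loess, a filter on the dimmest 40 percent of genes, averaging a gene's probe sets, eBayes with trend and robust, a threshold of 0.10 and leaving out each array. The crossed block was chosen after seeing the data. Members and lists were chosen with earlier results of these data known. Named genes are all members, *Hmga2*, the called genes of the lists, and *Cyba* and *Sftpb*, named as partner of *Cybb* and as tissue check. Of the genes of lowest p, up to 3 per related list and 1 per marker list, only a selection is named.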

Additional observations from a re-analysis of the deposited data

How the results depend on the processing

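All 4 genes that fell kept their direction in each setting, and *Mpeg1*, *Cybb* and *Clec7a* passed in all 6 alternatives with 4 arrays. The count of macrophage and monocyte genes that fell, 4, became 7 with cyclic loess, 7 at a threshold of 0.10 and 0 to 17 when 1 array was left out, and 0 rose in any setting. Over all genes, 140 fell and 16 rose, which became 221 and 73 after centring arrays on their medians, 270 and 80 with cyclic loess and 227 and 74 without the dimmest 40 percent of genes. With trend and robust 25 rose. When 1 array was left out, 0 to 2971 fell and 0 to 3321 rose, and the median of the 34 genes ran from −0.446 to −0.303. There a lone array borrows the spread of the other group.

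With the replicate number as a block, 6 of the 34 fell, and 361 of all genes fell and 241 rose. The deviations of arrays with the same number correlated at −0.238. This value does not settle whether the number pairs arrays, since each group has few arrays and whole arrays are offset from each other. With the crossed pairing, added after seeing the data, 8 of the 34 fell, and 305 of all genes fell and 207 rose.

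Directions turned for genes near 0 and for *Laptm5*, whose difference with all arrays was −0.318. The mean was lower in KO for 27 of the 34 genes without WT replicate 2 and 29 without KO replicate 2. It was lower for all 34 without replicate 1 of either group. With cyclic loess *Aif1* had 0.017, *Cd163* 0.04, *C1qc* −0.018 and *Hmga2* −0.006. With 1 array left out, the range was −0.076 to 0.003 for *Csf2ra*, −0.256 to 0.049 for *Aif1*, −0.729 to 0.093 for *Laptm5*, −0.254 to 0.091 for *Cd163*, −0.177 to 0.076 for *C1qa*, −0.231 to 0.124 for *C1qb*, −0.156 to 0.179 for *C1qc*, −0.102 to 0.206 for *Lgmn* and −0.076 to 0.179 for *Hmga2*. The cause was not tested.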
